A study of Mus musculus with 10 samples.

Results

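Genes of the primary cilium and genes mutated in polycystic liver and kidney disease were followed in a mouse line of cholangiocytes, which form the lining of bile ducts. Members were taken by symbol from a table of read counts: numbered Ift, Bbs and Nphp genes, Tctn1 to Tctn3, and a fixed list of polycystic disease, motor and transition zone genes. The rule matched 53 of 18407 genes, and Tmem67, which it also names, is not analysed here. No measured value entered the rule, but the members were chosen with earlier results of these data known.

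Cells of the NMC line (normal mouse cholangiocytes) were grown as 3D double spheroids for 6 days without further treatment. One group (5 libraries) was embedded in collagen I at 1 mg/mL, and the other (5 libraries) in laminin and collagen I mixed at 3:1 by volume. Every library comes from this single cell line, the laminin group also contains collagen I, and the labels call the samples biological replicates without saying how cultures were divided, so that a p-value covers only the variation among these libraries, which may be technical. Poly(A) mRNA was sequenced in bulk, where fewer cells of a kind and less RNA per cell cannot be told apart.

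The primary cilium is a single non-motile antenna that a cholangiocyte extends into the bile duct lumen, where it senses flow, osmolality and bile constituents. It is built by intraflagellar transport (IFT), in which trains of IFT-B and IFT-A proteins are carried outward by kinesin-2 and back by dynein-2. The BBSome moves membrane proteins along these trains, and the transition zone at the cilium base controls what enters. Loss of the ciliary membrane proteins polycystin-1, polycystin-2 or fibrocystin, or of the endoplasmic reticulum proteins that process polycystin-1, leads to fluid-filled cysts of bile ducts or kidney tubules.

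Totals ran from 4424725 to 8129979 counts per library, and the 53 genes took from 0.332% to 0.461% of them. Values are given as CPM, counts per 1000000 on library sizes scaled by edgeR's TMM factors, and differences as log2 values, laminin minus collagen. Markers of bile duct epithelium were present, led by the keratin Krt8 at a mean of 1180 CPM, with 10 of 12 at 1 CPM or more. Their levels were uneven. Krt19 was at a mean of 1040 CPM, but Krt7 was at 5.07, Cftr at 1.4 and Onecut1 at 0.641 CPM. The secretin receptor Sctr had no count. Multiciliated cell markers, 9 in number, summed to between 5.08 and 12.8 CPM in collagen and between 6.45 and 15.7 CPM in laminin. Foxj1 led them at a mean of 7.59 CPM, 2 of 9 were at 1 CPM or more, and Gmnc was at 0 in every library. Hepatocyte marker sums were 89.1 to 137 CPM in collagen and 136 to 193 CPM in laminin. Of these, 5 of 10 were at 1 CPM or more, led by Hnf4a (mean 94.6 CPM) and Alb (27.1 CPM), with Cyp2e1 and Cyp3a11 at 0. Fibroblast and stellate markers summed to 25.5 to 33.2 CPM in collagen and 23.7 to 54.8 CPM in laminin. Of these, 5 of 10 were at 1 CPM or more, led by Col1a1 (mean 12.8 CPM), with Lrat and Thy1 at 0. Endothelial markers summed to at most 1.12 CPM, with Cdh5, Emcn and Kdr at 0. Leukocyte markers summed to at most 8.14 CPM, led by Cd68 (mean 5 CPM), with Adgre1 at 0. The part of these markers in the values below was not tested.

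Promoter sequences were available from RefSeq (GRCm38.p6, 250 bases before to 50 after each start site) for 46 of the 53 genes. The X-box, the DNA element that RFX transcription factors bind in many cilium genes, was searched as GTTNCC, 0 to 3 bases and GGNAAC, which is its own reverse complement. It was found in 6 of these 46 genes (13%) and in 253 of all 27025 genes with a promoter in the table (0.936%). The 6 sites are printed with up to 8 flanking bases, in the gene's direction, with the match in capitals. The rule did not use this sequence feature.
Ift57: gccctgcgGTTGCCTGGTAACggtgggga
Ahi1: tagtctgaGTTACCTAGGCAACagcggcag
Tctn1: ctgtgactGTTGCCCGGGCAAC
Tctn3: tcccagcgGTTGCCAGGTAACgggaacca
Mks1: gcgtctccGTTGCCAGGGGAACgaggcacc
Bbs7: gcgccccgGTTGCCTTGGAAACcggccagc

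These sites lay at chr16:49699234-49699246 on the plus strand for Ift57, chr10:20952568-20952581 (plus) for Ahi1 and chr5:122264411-122264424 (minus) for Tctn1. For Tctn3 the site was at chr19:40612359-40612371 (minus), for Mks1 at chr11:87853191-87853204 (plus) and for Bbs7 at chr3:36613497-36613510 (minus). Those of Ahi1 and Tctn1 began 21 and 36 bases after RefSeq's start site, and the others 24 to 140 bases before it. The shorter motif GTTGCC, an arm of the X-box searched on both strands and able to overlap the full match, was in 19 of the 46 genes (41.3%) and in 14.1% of all genes with a promoter. An HNF1 site, the other motif searched, was in 0 of the 46 genes and in 3 of all 27025 genes with a promoter. A match describes letters in this window and does not show binding. Of the 6 genes with an X-box, Ift57 was the one whose groups differed at an unadjusted p under 0.05, and Mks1 was too low to test.

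The 53 genes covered a wide range of levels. Per kb of the longest annotated transcript, and averaged over the 10 libraries, the highest was Ganab, the catalytic subunit of glucosidase II in the endoplasmic reticulum, at 225 CPM per kb. Prkcsh, its regulatory subunit, followed at 150 CPM per kb, and Bicc1, an RNA-binding protein whose loss gives polycystic kidneys in mice, at 106 CPM per kb. These 3 stood well above the cilium's own parts. Next came Ift43 at 42.5, the kinesin-2 motor subunit Kif3a at 31.5, Pkd2 (polycystin-2) at 30.2, Ift20 at 29.3 and Sec63, a translocation factor of the endoplasmic reticulum, at 28.9 CPM per kb. The last 4 of these lay closer together than their spread over libraries (SD 4.54 for Kif3a and 7.31 for Pkd2 in collagen, CPM per kb).

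At the low end stood Pkhd1 (fibrocystin) at 1.06, Dync2h1 (the dynein-2 heavy chain) at 1.23 and the osmosensitive calcium channel Trpv4 at 1.43 CPM per kb. Pkhd1 and Dync2h1 have transcripts of 12935 and 14264 nt. The BBSome and its chaperonins ranged from 1.90 CPM per kb for the chaperonin-like Bbs10 to 10.5 for the subunit Ttc8. Ahi1 was the lowest tested transition zone gene at 3.84 CPM per kb and the tectonic Tctn2 the highest at 15.2. In the inversin compartment, the part of the shaft just beyond the transition zone, Nek8, a kinase, was the highest at 10.1 CPM per kb. Of the remaining pair, Arl13b, a GTPase of the ciliary membrane, stood at 11.6 and the basal body protein Ofd1 at 5.24 CPM per kb. Mks1, a transition zone protein mutated in Meckel syndrome, had 14 counts over all 10 libraries and at most 0.599 CPM in any. A count of 0, seen in 3 libraries, allows up to 3 counts, or 0.402 to 0.611 CPM in those libraries (counting error only). Mks1 was removed by the filter on low counts, which left 52 genes tested.

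**Figure D1:**
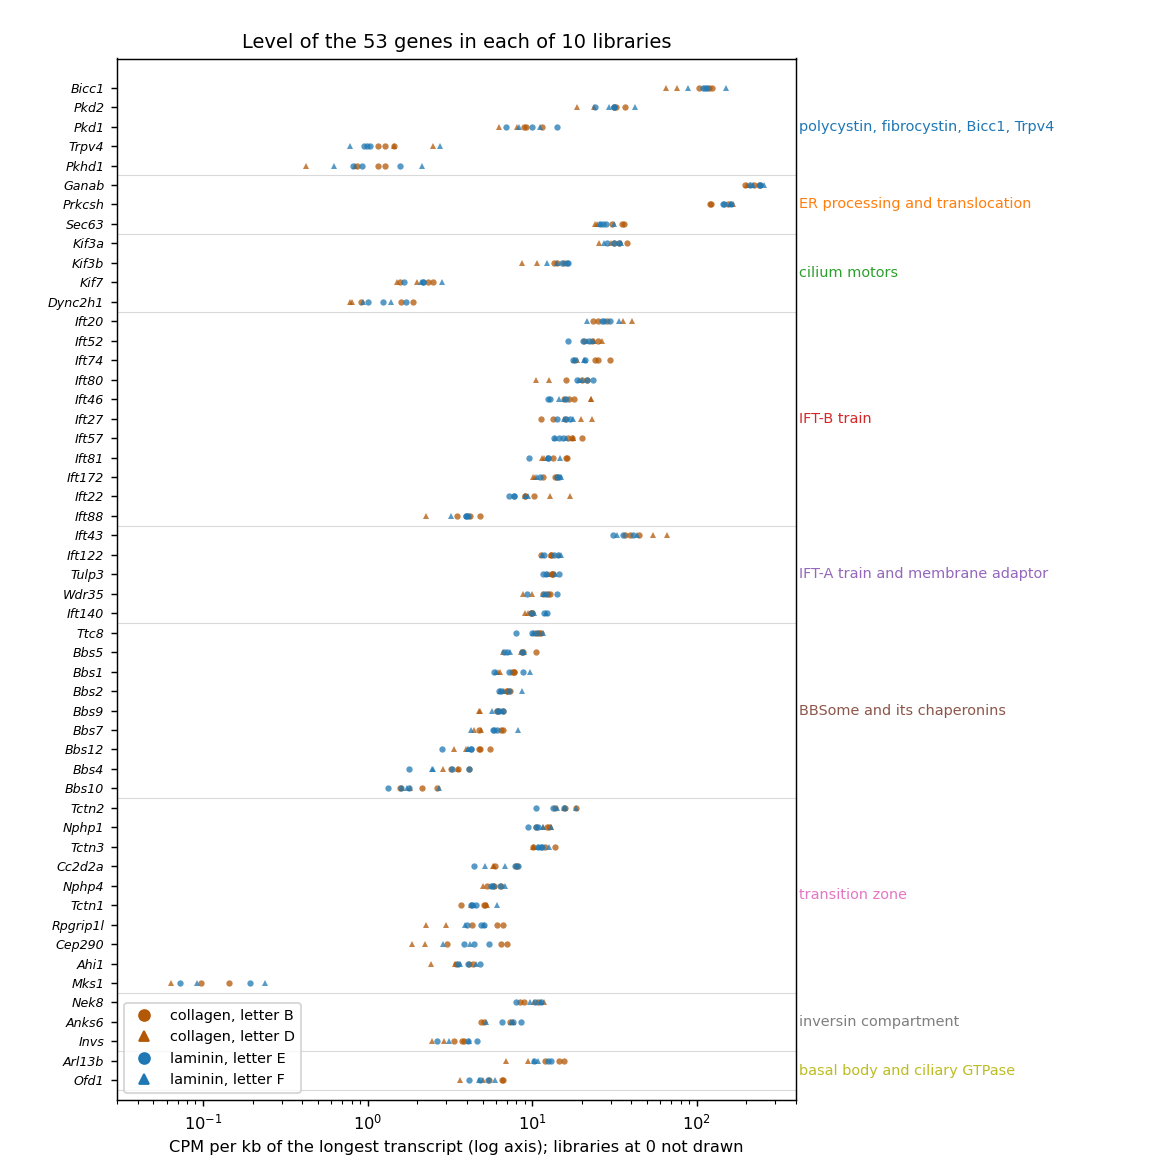
Level of 52 of the 53 genes in each library, as CPM per kb of the longest transcript on a log axis, grouped by role; colours give the matrix and symbols the letter of the library code. Ganab, Prkcsh and Bicc1 lead at 225, 150 and 106 CPM per kb on average, and Mks1 lies apart at the bottom with at most 0.599 CPM in a library.

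None of the 52 tested genes passed the comparison of laminin with collagen in edgeR's quasi-likelihood test (adjusted p from 0.254 to 1.00), against 16 of 10789 genes tested, or 0.148% (0.139% higher and 0.00927% lower). DESeq2 and limma-voom also called 0 of them. At an unadjusted p under 0.05 there were 5 of 52 (9.62%), where all genes gave 11.7%: 1 was higher in laminin (background 6.70%) and 4 were lower (background 4.95%). At that level DESeq2 gave 5 of 53 (all genes, 10.7%) and limma-voom 6 of 52 (all genes, 11.8%). Fitted differences were above 0 for 28 genes and below 0 for 24 (all genes, 48.3% below), with a median of 0.02 against 0.01 over all genes tested. The share of members with an unadjusted p under 0.05 was thus no larger than that of all genes.

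In the fit of all 10 libraries, taken as independent, most differences were bounded. The 95% interval of the difference lay within a 2-fold change for 50 of 52 genes (all genes, 91.7%) and within a 1.5-fold change for 38 (all genes, 63%). The exceptions to the 2-fold bound were Pkhd1, from -0.32 to 1.16, and Trpv4, from -1.0 to 0.52. These bounds do not cover the split by code letter described below. With collagen replicates 1 to 3 (letter B) left out, several fitted differences lay above their interval, while most members stayed within theirs. Cep290 was then 1.01 (upper limit 0.76), Ift80 0.79 (0.72) and Rpgrip1l 0.78 (0.58). Summed over the 53 genes, the level was 3790 ± 349 CPM in collagen and 4000 ± 320 CPM in laminin (SD, n = 5 per group), and these means lay within 1 SD of each other.

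**Figure D2:**
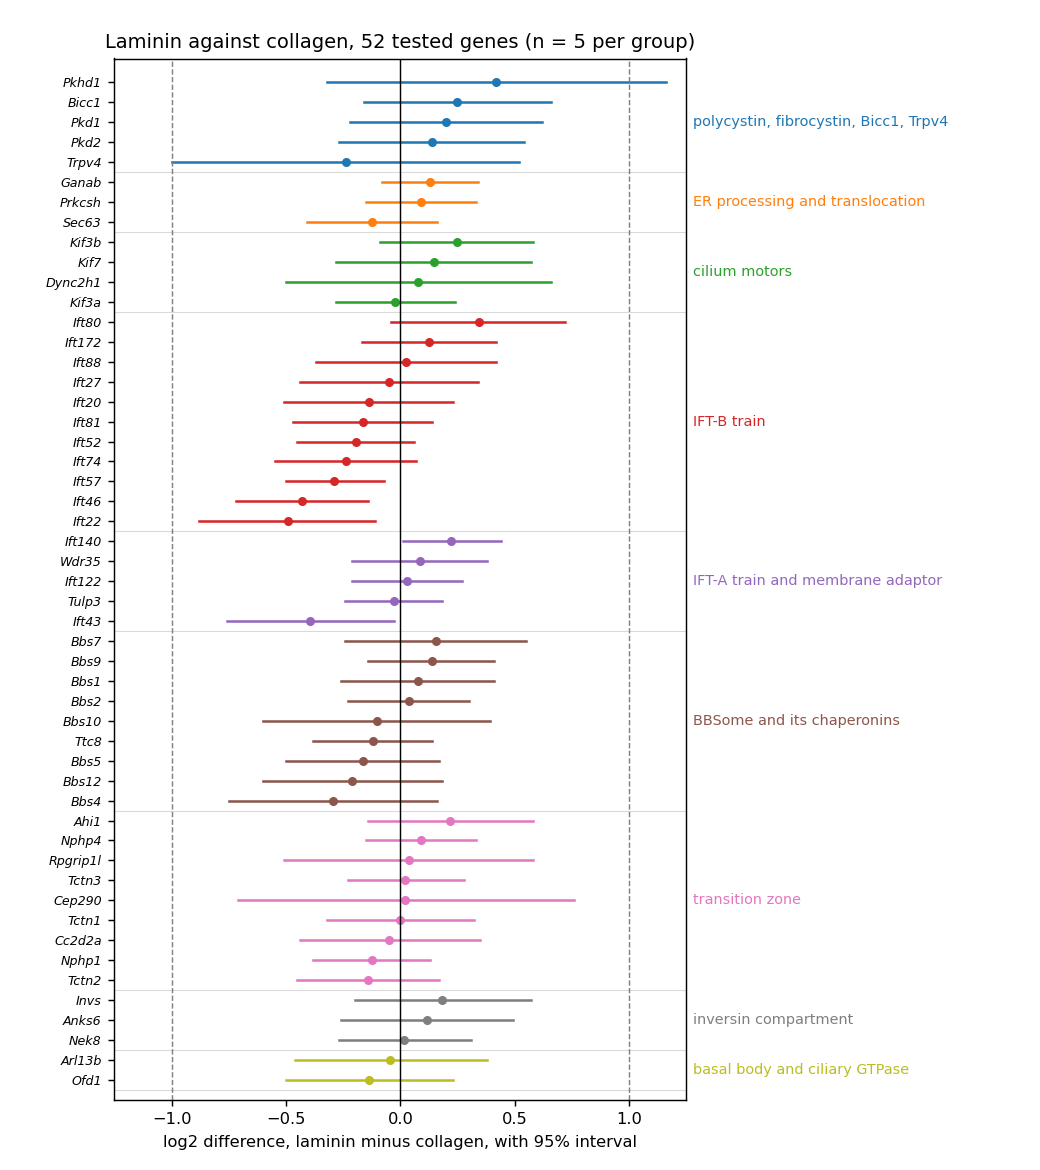
Log2 difference, laminin minus collagen, of 51 of the 52 tested genes by role, with points for the edgeR estimate and bars for its 95% interval (n = 5 per group); dashed lines mark a 2-fold change. The bars of Ift22, Ift46, Ift57, Ift43 and Ift140 stop short of 0, and those of Pkhd1 and Trpv4 reach past or to a dashed line.

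The IFT-B trains carry cargo toward the cilium tip, and 8 of their 11 measured subunits had a fitted difference below 0, with a median of -0.16. Ift46, a subunit of the IFT-B core on chromosome 9 (44767908 to 44793447, GRCm38), stood at 65.1, 70.3, 74.8, 95.5 and 95.1 CPM in collagen replicates 1 to 5. In laminin replicates 1 to 5 it stood at 66.8, 53.4, 52, 60.4 and 65.2 CPM. The groups overlapped only through laminin replicates 1 and 5 and collagen replicate 1, and the highest values were those of collagen replicates 4 and 5. The difference was -0.43 (SE 0.13), or 0.743 of the collagen level, with an adjusted p of 0.254 in edgeR.

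Ift57, a peripheral IFT-B subunit on chromosome 16 (49699233 to 49765126), was at 45.8, 52.1, 43.3, 46.0 and 46.2 CPM in the collagen libraries and at 40.0, 38.1, 35.2, 35.7 and 41.9 CPM in laminin. Every laminin library lay below every collagen library, the only such case among the 52 genes (1.92%). Over all genes 3.23% had ranges that did not overlap, 1.3% in this direction and 1.94% in the other. The difference was -0.29 (SE 0.10, adjusted p = 0.294 in edgeR). Exons of Ift57 overlap the antisense gene Gm15518, and without knowledge of the strand setting the reads of both cannot be told apart.

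Ift22, a small GTPase-like subunit of the IFT-B core (chromosome 5, 136908150 to 136915404), was at 28.0, 27.8, 31.5, 51.9 and 39.6 CPM in the collagen libraries and at 23.8, 22.2, 23.8, 29.1 and 27.9 CPM in laminin. Collagen replicates 4 and 5 stood above all other libraries, and collagen replicates 1 and 2 fell inside the laminin range. The difference was -0.49 (SE 0.18, adjusted p = 0.309 in edgeR). Without the 2 highest collagen libraries, those of code letter D, it was -0.20, and those of Ift46 and Ift43 were then -0.24 and -0.14.

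The other subunits did not share 1 direction. Ift80, a peripheral subunit mutated in a skeletal ciliopathy, was at 164, 154, 122, 80.4 and 97.2 CPM in the collagen libraries and at 143, 178, 164, 153 and 147 CPM in laminin, a difference of 0.34 (SE 0.18, adjusted p = 0.468 in edgeR). Here collagen replicates 4 and 5 were the lowest libraries, the reverse of their place for Ift22. Ift88, the classical polycystic kidney subunit whose loss prevents cilium assembly, gave 0.02 (95% interval -0.37 to 0.42) at 16.0 ± 4.15 and 16.3 ± 1.52 CPM (SD, n = 5). Ift20, which links the Golgi to the cilium, was at 35.8 ± 8.53 and 32.5 ± 5.23 CPM, and the remaining 5 gave differences between -0.24 (Ift74) and 0.12 (Ift172).

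IFT-A carries cargo back from the tip and brings membrane proteins in with the adaptor Tulp3. Ift140, a core IFT-A protein (chromosome 17, 25016085 to 25099495), was at 69.3, 68.7, 69.8, 65.5 and 62.9 CPM in the collagen libraries and at 68.2, 82.5, 85.7, 84.4 and 71.4 CPM in laminin. Laminin replicate 1 fell inside the collagen range and the other 4 lay above it. The difference was 0.22 (SE 0.10, adjusted p = 0.415 in edgeR).

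Ift43, a small IFT-A subunit (chromosome 12, 86082541 to 86162459), ran the other way, at 30.6, 32.8, 37.7, 55.8 and 45.6 CPM in the collagen libraries and 34.3, 30.0, 25.9, 27.6 and 36.2 CPM in laminin. Again collagen replicates 4 and 5 were the highest, and the other collagen libraries lay within or just above the laminin range. The difference was -0.39 (SE 0.17, adjusted p = 0.394 in edgeR). Ift122, Wdr35 and Tulp3 gave 0.03, 0.09 and -0.03, and Tulp3 had the least spread within collagen of these genes, at 47.6 ± 1.03 CPM.

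**Figure D3:**
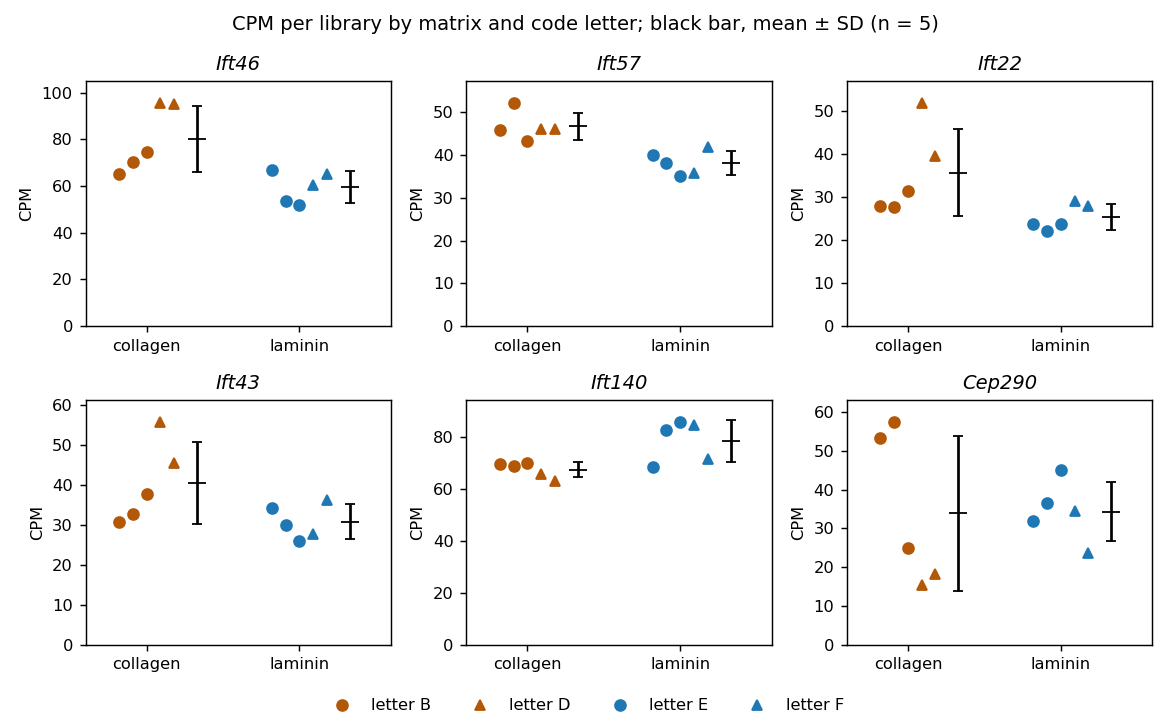
CPM in each library for the 5 genes with an unadjusted p under 0.05 and for Cep290, by matrix (n = 5 each), with symbols for the code letter and black bars for mean ± SD. Ift57 is the one gene whose groups do not overlap, and in Ift46, Ift22 and Ift43 the letter D collagen libraries are the highest points, while in Cep290 they are the lowest.

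The motors gave differences from -0.02 to 0.25. Kif3a, which drives outward transport, was at 107, 119, 99.8, 80.8 and 95 CPM in the collagen libraries and at 107, 90.4, 100, 110 and 87.1 CPM in laminin, with the laminin range inside the collagen range and an interval of -0.28 to 0.24. Its partner Kif3b gave 0.25 (-0.09 to 0.58), and Kif7, which organises the cilium tip for hedgehog signalling, 0.15 (-0.28 to 0.57). Dync2h1, the motor of return transport, gave 0.08 with a wider interval, -0.50 to 0.66.

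Among the disease genes of the ciliary membrane, Pkd1 (polycystin-1, a large receptor-like protein) was at 163, 130, 126, 89.8 and 114 CPM in the collagen libraries and at 97.7, 141, 200, 159 and 118 CPM in laminin. The difference of 0.20 (SE 0.19) was smaller than the spread in either group. Pkd2, the channel that polycystin-1 binds, was at 193, 170, 165, 97.9 and 125 CPM in the collagen libraries and at 126, 164, 165, 219 and 153 CPM in laminin, a difference of 0.14 (SE 0.19). In both genes collagen replicate 4 was the lowest library of all. Exons of Pkd1 overlap those of Tsc2 on the opposite strand.

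Pkhd1 (fibrocystin, mutated in recessive polycystic disease with bile duct malformation) was at 15, 16.6, 11.1, 5.50 and 10.9 CPM in the collagen libraries and at 12, 10.5, 20.3, 27.6 and 8.06 CPM in laminin. It had the widest span of the 52 tested genes, 5.02-fold from collagen replicate 4 to laminin replicate 4. The difference was 0.42 (SE 0.34, adjusted p = 0.679 in edgeR). Bicc1 was at 673, 644, 559, 352 and 413 CPM in the collagen libraries and at 631, 609, 591, 820 and 485 CPM in laminin, a difference of 0.25 (SE 0.19), again with laminin replicate 4 highest and collagen replicate 4 lowest. Bicc1 and Pkhd1 overlap the antisense genes 4930533K18Rik and 4930486I03Rik.

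Trpv4, through which cholangiocyte cilia sense osmolality, was at 4.66, 3.75, 4.13, 4.68 and 8.02 CPM in the collagen libraries and at 3.36, 3.09, 3.20, 8.84 and 2.53 CPM in laminin. A single library was high in each group, and the difference of -0.24 (SE 0.35) was within the spread of both. Its counts were low, 292 over the 10 libraries.

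The endoplasmic reticulum genes of polycystic liver disease process and translocate glycoproteins such as polycystin-1. Ganab was at 829 ± 63.4 and 906 ± 71.7 CPM in collagen and laminin (SD, n = 5), a difference of 0.13 (-0.08 to 0.34). Prkcsh was at 324 ± 48.2 and 345 ± 18.8 CPM, a difference of 0.09 (-0.15 to 0.33), and Sec63 at 182 ± 34.4 and 167 ± 13.8 CPM, a difference of -0.12 (-0.41 to 0.16). All 3 intervals, from the fit of all 10 libraries, excluded a 1.5-fold change in either direction.

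The BBSome coat and its chaperonins gave 4 differences above 0 and 5 below, from -0.29 for Bbs4 to 0.15 for Bbs7, and their sum was 163 ± 15.2 CPM in collagen and 162 ± 21.0 CPM in laminin (SD, n = 5). Ttc8, a subunit also known as BBS8, was at 24.9 ± 0.821 and 23.0 ± 3.13 CPM. The transition zone sum was 288 ± 42.9 and 286 ± 35.2 CPM, with differences from -0.14 (Tctn2) to 0.22 (Ahi1). In the inversin compartment, Invs (inversin) gave 0.18 (-0.20 to 0.57) at 18.4 ± 3.33 and 20.9 ± 4.52 CPM, and its partner Anks6 gave 0.12 (-0.26 to 0.49). Exons of Invs overlap those of Tex10 on the opposite strand. Arl13b, Nek8 and Ofd1 gave -0.04, 0.02 and -0.14.

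Several of these genes varied more within the collagen group than between the matrices. Cep290, a transition zone protein mutated in Joubert syndrome and retinal disease, was at 53.4, 57.5, 24.9, 15.3 and 18.3 CPM in collagen replicates 1 to 5 and at 31.9, 36.5, 45.1, 34.5 and 23.7 CPM in laminin. The collagen libraries spanned the whole laminin range and went beyond it on both sides. Between matrices the difference was 0.02 (SE 0.34), with an interval of -0.71 to 0.76. Exons of Cep290 overlap the antisense gene 4930430F08Rik. Exons on the opposite strand also overlap Ift88 (Ift88os), Kif7 (9330171B17Rik and Ticrr), Sec63 (Gm26860), Ofd1 (Trappc2), Bbs4 (Adpgk), Bbs12 (Cetn4) and Tctn1 (Gm15481 and Hvcn1), with the same limit. Bbs12 also shares exon sequence with Gm43439 on the same strand, which a known strand setting would not resolve.

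Library codes divide collagen replicates 1 to 3 (letter B) from 4 and 5 (letter D), and laminin replicates 1 to 3 (letter E) from 4 and 5 (letter F). What the letters stand for is not stated, and each occurs in a single matrix, so that letter and matrix cannot be told apart. In a comparison added after the data were seen, 12 of 52 genes differed between letters D and B (adjusted p from 0.0277 to 0.0465 in edgeR), against 15.8% of all genes tested, and 21 had an unadjusted p under 0.05 (all genes, 37.3%). Lower in letter D were 9 (background 10.4%): Cep290 (-1.42, SE 0.33), Rpgrip1l (-1.10, SE 0.23), Arl13b (-0.77), Ift80 (-0.72), Bicc1 (-0.71), Pkd2 (-0.66), Kif3b (-0.57), Ift74 (-0.52) and Sec63 (-0.48). Higher were 3 (background 5.42%): Ift27 (0.67), Ift22 (0.65) and Ift43 (0.58). Without collagen replicate 1, 2 or 4 the count was 0 (all genes 0%), without collagen replicate 5 it was 5 (all genes 5.85%) and without collagen replicate 3 it was 19 (all genes 33.8%). Without laminin replicate 2 it was 3 (all genes 3.30%), and without any other laminin library 9 to 14 (all genes 11.7% to 22.5%). Between letters F and E within laminin, 0 genes were called in edgeR (all genes 0%), and 0 had an unadjusted p under 0.05 (all genes, 3.84%).

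Transcript length moved with these differences. Over the 52 genes, the difference of letter D from B had a Spearman rho of -0.60 with transcript length, against -0.65 over 10781 genes. The difference of laminin from collagen had a rho of 0.54, against 0.39 over all genes, and that of letter F from E -0.37, against -0.24. The letter D libraries enter both of the first 2 differences. These values are across genes that share the same libraries and are descriptions. The 4 shortest, Ift43 (838 nt), Ift20 (1167 nt), Bbs5 (1468 nt) and Ift27 (1569 nt), all had a fitted value below 0 in laminin, while the 3 longest, Pkhd1, Pkd1 and Dync2h1, all had one above 0. After each library's trend on length and GC content was taken out, 0 members were called (104 of all genes). Ift46 and Ift22 then gave -0.48 (adjusted p = 0.117) and -0.48 (0.145) and Ift57 -0.23 (0.192), while Ift43 moved from -0.39 to -0.25 (0.159), Ift140 from 0.22 to 0.02 (0.954) and Pkd1 from 0.20 to -0.20 (0.369), all in edgeR. Any effect of the matrix that runs along length is taken out with it. Length here is that of the longest annotated transcript (4169 nt for Ift46 and 3071 nt for Ift22). Which transcript of a gene was expressed was not tested.

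**Figure D4:**
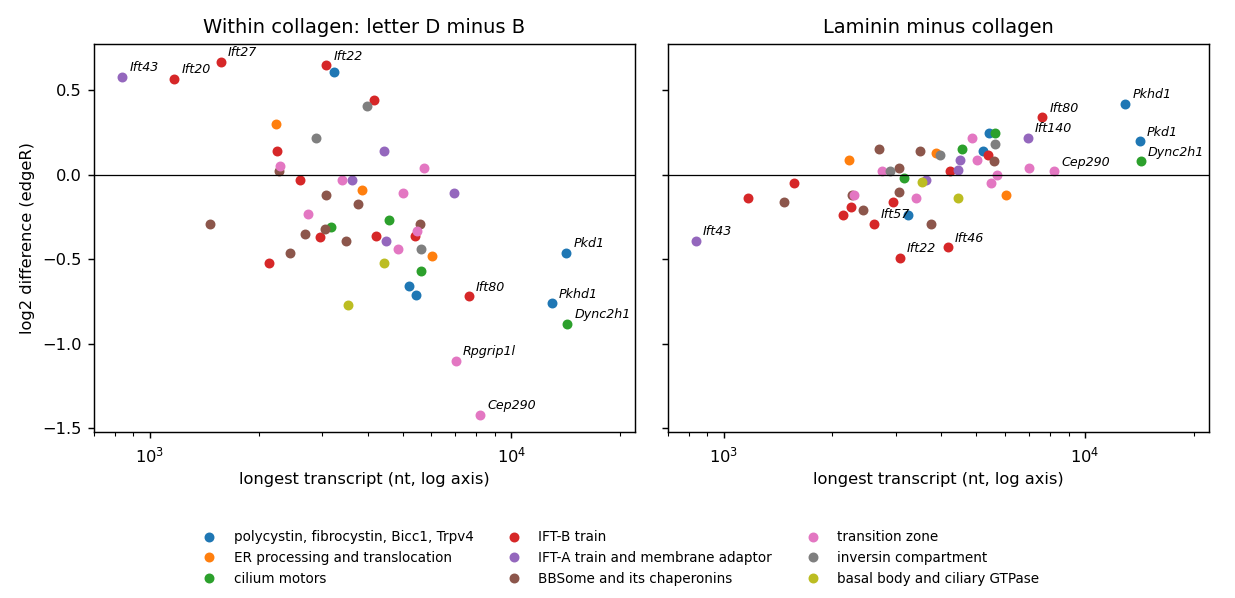
Log2 difference of 51 of the 52 tested genes against the length of its longest transcript (log axis), for letter D minus B within collagen on the left and laminin minus collagen on the right, coloured by role. On the left, Cep290 lies lowest at -1.42 and Ift27 highest at 0.67; on the right the short Ift43 is at -0.39 and the long Pkhd1 at 0.42.

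The count of members called between matrices changed with the letters kept. With the letter B libraries left out, so that laminin was set against collagen replicates 4 and 5, 9 of 52 genes passed in edgeR, against 18.9% of all genes tested. Higher in laminin were Cep290 (1.01, SE 0.23), Ift80 (0.79), Rpgrip1l (0.78), Bicc1 (0.69) and Kif3b (0.59), against a background of 10.9%. Lower (background 7.96%) were Ift22 (-0.88), Ift43 (-0.75), Ift46 (-0.71) and Ift27 (-0.44), with adjusted p from 0.0204 to 0.0495. This comparison and that of letters D and B share the 2 letter D libraries. With the letter D libraries left out, 0 were called (0.0456% of all genes) and 6 (11.5%) had an unadjusted p under 0.05, against 11.6% of all genes.

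Cilium genes outside the rule came from 8 lists of 137 genes with a row in the table, of which 101 were tested. None passed in edgeR (0.148% of all genes), and limma-voom also called 0. In edgeR 9 of the 101 (8.91%) had an unadjusted p under 0.05, 3 higher and 6 lower, against 11.7% of all genes. DESeq2 called 2, Dync2li1 and Adcy6, against 214 (1.76%) of all genes with an adjusted p. Dync2li1, a light intermediate chain of dynein-2, was at 33.1 ± 2.31 CPM with collagen and 24.9 ± 2.10 CPM in laminin (SD, n = 5), with ranges that did not overlap (all genes, 3.23%) and a difference of -0.41 (SE 0.11, adjusted p = 0.157 in edgeR). Adcy6, an adenylyl cyclase found in cholangiocyte cilia, was at 117 ± 15.7 and 156 ± 13.6 CPM, also without overlap, a difference of 0.41 (SE 0.11, adjusted p = 0.179 in edgeR). Both also passed with 1 surrogate variable, which called 438 genes in all, and Adcy6 without letter B. With the length and GC offset they were smaller and did not pass, Dync2li1 at -0.28 (adjusted p = 0.288) and Adcy6 at 0.22 (0.160).

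The lists are given by their counts tested and up to 2 genes with the smallest p. Other transport subunits were above 0 for 2 of 11 (Dync2li1, and Rabl2 at -0.37), and other transition zone genes for 4 of 15 (Tmem138 at -0.22, Cspp1 at 0.30). Basal body genes were above 0 for 11 of 21 (Rab11a, a GTPase of recycling endosomes, at -0.27, and Cep131 at 0.32), and signalling genes of the ciliary membrane for 8 of 15 (Adcy6, and the prenyl-binding shuttle Pde6d at -0.35). Cilium disassembly genes were above 0 for 4 of 13 (the kinase Nek2 at 0.19). Other disease genes were above 0 for 8 of 16 (the mannosyltransferase Alg9 at -0.43, the distal appendage protein Cep164 at 0.32). Of the transcription factors, 11 of 12 were above 0, with a median of 0.20. They included Hnf4a at 80.0 ± 15.3 and 109 ± 27.5 CPM (0.45, SE 0.19), with an adjusted p of 0.390 in edgeR. Hnf4a also led the hepatocyte marker sum given above. Of 20 genes of the motile axoneme, 4 were tested, among them Cfap126 at 2.54 ± 0.473 and 1.71 ± 0.408 CPM and Zmynd10 at 1.68 ± 0.111 and 1.29 ± 0.702 CPM.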

How the data were processed

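RNA from 10 samples (30 ng per library, stranded poly(A) mRNA kit, per the labels' protocols) was counted per gene symbol. The authors deposited whole-number read counts without normalization. The build was GRCm38 (mm10), per the submitters' processing notes, which also name DESeq2. Not given in the sources used here are the aligner, the counter, its strand setting and its annotation.

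Genes were kept with edgeR's default filterByExpr (10789 of 18407), scaled by TMM and tested with edgeR 4.0.16 (quasi-likelihood F test, group only, two-sided) in R 4.3.3, with Benjamini-Hochberg adjustment over all tested genes and a threshold of 0.05. SE was the log2 difference divided by the square root of F, and 95% intervals used the test's total degrees of freedom. No 2 libraries were alike within sampling noise (chi-square per degree of freedom at least 3.24). Positions, lengths and GC content came from GENCODE M21 (GRCm38), matched for 18339 genes.

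The members and lists were chosen with earlier results of these data known. Named genes were members with an unadjusted p under 0.05, 12 fixed members, the highest and lowest per kb of each role, and the 2 smallest p of each other list. Some genes that this rule names are not reported here, singly or in plots. Others were named after their values were seen. Alternatives were DESeq2 1.42.0, limma-voom (limma 3.58.1), DESeq2 size factors in edgeR, no scaling factors, no filter, and at least 1 CPM in 5 libraries. Further ones were replicate numbers as a block, a length and GC offset, 1 surrogate variable (sva 3.50.0), and leaving out each library or code letter. The test was tested on simulated data.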

Additional observations from a re-analysis of the deposited data

Results flagged for a closer look

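In 7 of 136 groups of 5 libraries tested, the highest or lowest library lay far from the others on the log2 CPM scale by Dixon's ratio, where chance gives about 6.8 (5%). Ift88 was low in laminin replicate 5, at 3.80 (13.6 CPM, next 16.7 CPM). Bbs12 was low in laminin replicate 1, at 2.84 (6.86 CPM, next 9.89 CPM). Trpv4 was high in collagen replicate 5, at 3.06 (8.02 CPM, next 4.68 CPM), and in laminin replicate 4, at 3.20 (8.84 CPM, next 3.36 CPM). Tctn1 was high in laminin replicate 4, at 5.13 (34.8 CPM, next 26.2 CPM). Tulp3 was low in collagen replicate 4, at 5.53, which in CPM is 45.8 against 47.7 for the next library. Hnf4a was low in laminin replicate 4, at 5.96 (62 CPM, next 113 CPM), just below the lowest collagen library at 62.7 CPM. Laminin replicate 4 is 3 of these 7 and collagen replicate 4 is 1.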

How the results depend on the processing

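Members called between matrices stayed at 0 with 2 exceptions. They were 1 of 52 with 1 surrogate variable (Ift46, all genes 4.06%) and 9 of 52 without code letter B (all genes 18.9%). At an unadjusted p under 0.05 the 5 members became 12 with 1 surrogate variable (all genes 22.6%), 16 without letter B (37.1%) and 1 without letter E (4.89%). The 1 member with separate ranges became 22 (42.3%) without letter B, where all genes gave 41.1%. It became 3 (5.77%) without letter D, E or F, where all genes gave 7.28% to 10%. When each library was left out there were 1 to 2 (1.92% to 3.85%), where all genes gave 3.57% to 5.91%. The 16 genes called in all became 214 with DESeq2, 29 with no filter, 104 with the length and GC offset, 438 with 1 surrogate variable, 2083 without letter B, 5 without letter D or F and 1 without letter E. Leaving out each library gave 0 (collagen replicate 3 or 5, laminin replicate 2) to 64 (laminin replicate 1). Other cilium genes called were 2 with DESeq2 (1.76% of all genes with an adjusted p) and 2 of 101 with 1 surrogate variable (all genes 4.06%). Without letter B they were 16 of 102 (all genes 18.9%). The cause was not tested.

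With the replicate number as a block, 0 genes were called. To check the numbers, each gene's mean within its matrix group was subtracted from the log2 CPM values. These deviations correlated between same-numbered samples at -0.31, 0.26, -0.11, -0.33 and 0.48, so the numbers were not taken as pairs. By the same measure, 1 of the 5 collagen samples correlated best with the laminin sample of its own number. With the block, Arl13b turned from -0.04 to 0.00. The sign was followed over 24 alternative settings for 52 genes, members and others, except Zmynd10, followed over 21. They hold the members whose fitted difference between matrices is printed as a number in the text, except Ift80. Ift80 was 0.79 without letter B, 0.10 without letter D and 0.23 with the offset. Bbs5, also outside this set, was 0.00 with the offset. Those of the 52 that turned sign follow.

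Without letter B, Prkcsh was -0.11, Sec63 0.15, Kif3a 0.14, Arl13b 0.45, Ofd1 0.17, Bbs10 0.07, Nek8 -0.14, Ift74 0.07, Anks6 -0.14 and Ift122 -0.08. Without letter D, Pkd2 was -0.09, Trpv4 0.03, Ift88 -0.11, Cep290 -0.39, Dync2h1 -0.20, Ift20 0.11, Ift27 0.25, Rpgrip1l -0.30, Wdr35 -0.05 and Ift172 -0.01. Without letter E, Trpv4 was 0.20, Ift88 -0.08, Cep290 -0.23, Dync2h1 -0.05, Bbs10 0.17, Tctn2 0.01, Nek2 -0.02, Anks6 -0.07 and Rpgrip1l -0.01. Without letter F, Pkd2 was -0.00, Arl13b 0.01, Nek8 -0.04 and Kif7 -0.00. The offset, alone and with the block, gave Pkd1 -0.20 and -0.20, Dync2h1 -0.13 and -0.14, Ift20 0.03 and 0.03, Arl13b 0.01 and 0.03, Nek8 -0.01 and -0.02, Ift122 -0.05 and -0.06, Ift172 -0.02 and -0.02, Ift27 0.05 and 0.05, and Rpgrip1l -0.03 and -0.01, and alone Cep290 -0.01 and Kif7 -0.01. With 1 surrogate variable, Ift88 was -0.05, Cep290 -0.08, Dync2h1 -0.03, Ift20 0.00, Ift27 0.11 and Rpgrip1l -0.07. With no filter Cep290 was -0.00 and Nek8 -0.01, with 1 CPM in 5 libraries Nek8 was -0.00, and with limma-voom Arl13b was 0.00. Leaving out each library gave Arl13b -0.18 to 0.06, Bbs10 -0.31 to 0.01, Nek8 -0.06 to 0.08, Kif3a -0.09 to 0.03, Ift88 -0.11 to 0.10, Cep290 -0.16 to 0.27, Dync2h1 -0.08 to 0.28, Pkd2 -0.00 to 0.23, Ift122 -0.04 to 0.08, Ift27 -0.18 to 0.09 and Rpgrip1l -0.12 to 0.21. Counts limit Mks1, Trpv4 and Bbs10.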
